A study of Mus musculus with 12 samples.

Results

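Hmgcs1, Sqle, Idi1, Fdps, Lss, Insig1 and Srebf2 are 7 genes of cholesterol synthesis and its control through SREBP2, and their RNA levels are described here across mouse lung cells sorted for CD140a, the surface protein encoded by Pdgfra. They were chosen by symbol, and were 7 of the 40760 genes counted and 7 of the 17418 genes kept by a filter on low counts. RNA was sequenced in bulk from 12 libraries in 4 groups of 3, which asked how loss of Pear1, a membrane receptor, alters the response of these cells to bleomycin (bleo), a drug that injures the lung and is used to induce fibrosis in mice. The 4 groups were vehicle and bleo in WT mice, and vehicle and bleo in Pear1-/- mice. WT libraries came from wild-type C57BL/6 mice. In Pear1-/- mice, a cassette with a splice acceptor, LacZ and Neo between exons 6 and 7 interrupts Pear1 in every cell of the body, so a difference between genotypes need not arise in the sorted cells. Mice were male. The study's methods give an age of 8 to 12 weeks and bleo as an aerosol into the trachea at 1.5 or 2 µg per gram of body weight with lungs taken on day 21 as general statements, and which dose these libraries had, and how many mice each library stands for, is not given in the sources used here. Nothing in the labels says that the 3 libraries of a group came from separate mice, so the p-values below measure the spread between these libraries, which may be technical.

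Totals ran from 6702948 to 10447101 counts per library. Normalized counts, which are raw counts divided by the size factor the authors gave each library, are used for levels throughout. For Pear1 itself, WT vehicle held 576, 545 and 519 normalized counts, Pear1-/- vehicle held 511, 501 and 547, WT bleo held 256, 239 and 266 and Pear1-/- bleo held 355, 372 and 344. Pear1 RNA in Pear1-/- vehicle was at -0.078 on the log2 scale against WT vehicle, with an adjusted p of 0.49, so no fall was shown. In Pear1-/- bleo it was higher than in WT bleo, at 0.48 with an adjusted p of 7.54e-05, and the libraries did not overlap. Counts over the whole gene cannot check an insertion between exons 6 and 7, so Pear1-/- names the label wherever a direction between genotypes is given. WT vehicle replicate 2 stood apart from its group: counts over all genes differed with a chi-square per degree of freedom of 21.2 and 21.8 from WT vehicle replicates 1 and 3, against 1.73, 2.13 and 2.67 from the 3 Pear1-/- vehicle libraries. It is therefore closer to the other genotype's libraries than to those of its own label, and since Pear1 RNA does not separate the vehicle groups, the label of this library could not be checked and is in doubt. WT vehicle replicates 1 and 3 were at 1.58 from each other, but at 23.1 to 27.2 from the 3 Pear1-/- vehicle libraries. They had the lowest totals, 6702948 and 7036892. Genes with a count numbered 35472 and 35884 in them, 29845 in replicate 2 and 27702 to 29425 in Pear1-/- vehicle. All values without replicate 2 rest on these 2 libraries for WT vehicle, and which of the 3 is unusual was not tested. Chi-square per degree of freedom was 1.351, 1.417 and 1.487 within WT bleo, and 1.474, 1.393 and 1.367 within Pear1-/- bleo. Within Pear1-/- vehicle it was 1.436, 4.305 and 4.821. Counting noise alone gives about 1 on this measure, so the libraries of each bleo group differed by little more than that. Whether their spread includes differences between mice was not tested, so calls between the bleo groups may not carry over to other mice. Without WT vehicle replicate 2, Pear1 between the vehicle groups was at -0.0078, with an adjusted p of 0.942. Most counts of called genes and most of the members' log2 fold changes that use WT vehicle are given with and without WT vehicle replicate 2 below. Group levels are given with it. For other genes, 50 of 50 named results that use WT vehicle kept their direction without it and 49 stayed called, the exception being Hsd17b7, an enzyme of the pathway, in WT bleo against WT vehicle (-0.32 with it, -0.22 without, adjusted p = 0.105). Pdgfra, the gene of the sort, averaged 4565 ± 325 (SD, n = 3), 4165 ± 39.1, 1360.1 ± 29.9 and 2392 ± 18.8 normalized counts in WT vehicle, Pear1-/- vehicle, WT bleo and, last, Pear1-/- bleo, and Ptprc, the pan-leukocyte gene for CD45, was also present at 3303 ± 479, 3818 ± 263, 7616 ± 97.8 and 3365 ± 109 in the same order.

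Cells make cholesterol from acetyl-CoA through mevalonate, the isoprenoid farnesyl diphosphate, squalene and lanosterol. When sterols in the endoplasmic reticulum run low, the escort protein SCAP carries SREBP2 to the Golgi, where proteases release a fragment that enters the nucleus and turns on the genes of the pathway. INSIG1 holds SCAP in the endoplasmic reticulum when sterols are plentiful, and oxysterols at the same time activate the nuclear receptor LXR, which turns on genes of sterol export. RNA levels of the target genes are often used as a readout of SREBP2 activity, whereas the release of the fragment is a protein step that RNA-seq does not measure.

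SREBP2 acts at promoters together with the factors NF-Y and SP1, so the promoters of the members were searched for 3 short motifs on both strands: TCACNCCAC, a core of the sterol response element, CCAAT, the NF-Y box, and GGGCGG, the GC box. RefSeq promoter windows on GRCm38.p6 were at hand for 5 of the 7 members and were searched over the 250 bases before the RefSeq start. The NF-Y box and the GC box were found in 5 of these 5, and in 33.8% and 32.7% of all 32851 windows. TCACNCCAC was found in the Hmgcs1 window alone, 1 of 5, and in 1.05% of all windows. No match overlapped another motif. The 4 stretches below show where the matches lie, with the parts before the annotated GENCODE M21 gene start printed 5′ to 3′ on the plus strand and motif letters in capitals (TCACCCCAC for the sterol response element core, ATTGG for the NF-Y box read on the other strand, and GGGCGG or CCGCCC for the GC box).
Hmgcs1, chr13:119690101-119690350: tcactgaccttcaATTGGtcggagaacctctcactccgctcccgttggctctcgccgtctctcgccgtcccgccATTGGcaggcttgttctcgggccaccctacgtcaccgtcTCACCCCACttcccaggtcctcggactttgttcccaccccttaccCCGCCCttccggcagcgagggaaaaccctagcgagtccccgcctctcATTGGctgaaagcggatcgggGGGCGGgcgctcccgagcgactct
Lss, chr10:76531355-76531587: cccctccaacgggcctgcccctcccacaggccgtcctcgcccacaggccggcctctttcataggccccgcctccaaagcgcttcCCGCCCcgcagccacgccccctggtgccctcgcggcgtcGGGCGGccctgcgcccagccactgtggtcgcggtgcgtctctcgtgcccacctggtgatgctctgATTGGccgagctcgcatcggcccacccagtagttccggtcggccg
Insig1, chr5:28071162-28071362: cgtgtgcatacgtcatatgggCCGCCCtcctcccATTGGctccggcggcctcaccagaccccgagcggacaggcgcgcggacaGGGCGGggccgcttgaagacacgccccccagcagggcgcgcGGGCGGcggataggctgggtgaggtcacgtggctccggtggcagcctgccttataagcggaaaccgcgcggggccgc
Srebf2, chr15:82147019-82147180: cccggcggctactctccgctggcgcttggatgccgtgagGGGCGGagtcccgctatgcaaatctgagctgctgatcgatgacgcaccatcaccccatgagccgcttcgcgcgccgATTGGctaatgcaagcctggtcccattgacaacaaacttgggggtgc
Hmgcs1, an early enzyme of the pathway, held the sterol response element core at base -137 from the RefSeq start, 3 NF-Y boxes and 2 GC boxes. Lss held 1 NF-Y box and 2 GC boxes, Insig1 1 and 3, and Srebf2 1 and 4, of which 1 GC box lies in the stretch printed. A match is a description of the letters, and a window without one says nothing about binding of the factor.

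Per kilobase of each gene's longest coding transcript, Insig1, Hmgcs1 and Srebf2 had the highest levels, and Fdps and Lss the lowest, in all 4 groups. In WT bleo the order was Insig1 at 319 ± 4.0 normalized counts per kilobase (SD, n = 3), Hmgcs1 at 280.1 ± 17.1, Srebf2 at 238 ± 8.18, Sqle at 153 ± 9.97, Idi1 at 71.1 ± 5.54, Fdps at 41.3 ± 7.96 and Lss at 40.5 ± 1.0. The libraries of Fdps and Lss overlapped, while all other neighbours in that order were separate. In WT vehicle, Insig1 at 300.4 ± 40.5, Hmgcs1 at 285 ± 51.7 and Srebf2 at 274 ± 7.85 per kilobase could not be ordered beyond their spread. Among the Pear1-/- bleo libraries, Srebf2 at 209 ± 6.56 and Hmgcs1 at 203 ± 4.22 overlapped, and Insig1 at 237 ± 1.44 was still above both.

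Differences between groups are given as log2 fold changes of the first-named group over the second from edgeR's quasi-likelihood test, with Benjamini-Hochberg adjustment over the 17418 genes, with the standard error (SE) of the log2 fold change, and a gene is called higher or lower at an adjusted p under 0.05. In bulk RNA, fewer cells of a type and less RNA per cell cannot be told apart, and this holds for each difference that follows. Of the 7 members, 5 fell in Pear1-/- bleo against WT bleo, by 0.20 to 0.59 on the log2 scale, where 24% of all genes were called lower. All 7 had every Pear1-/- bleo library below every WT bleo library, as had 31.6% of all genes. After bleo, 1 of 7 fell in WT, where 36.5% of all genes were called lower, and 2 of 7 fell in Pear1-/-, where 33.1% were. Between the vehicle groups 0 of 7 were called by edgeR's quasi-likelihood test, where 7.24% of all genes were called in either direction, and 3 had an unadjusted p under 0.05, as had 31.4% of all genes. Each member is described in the order of the pathway, with its position on GRCm38 and its library values in the order of replicates 1 to 3.

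**Figure D1:**
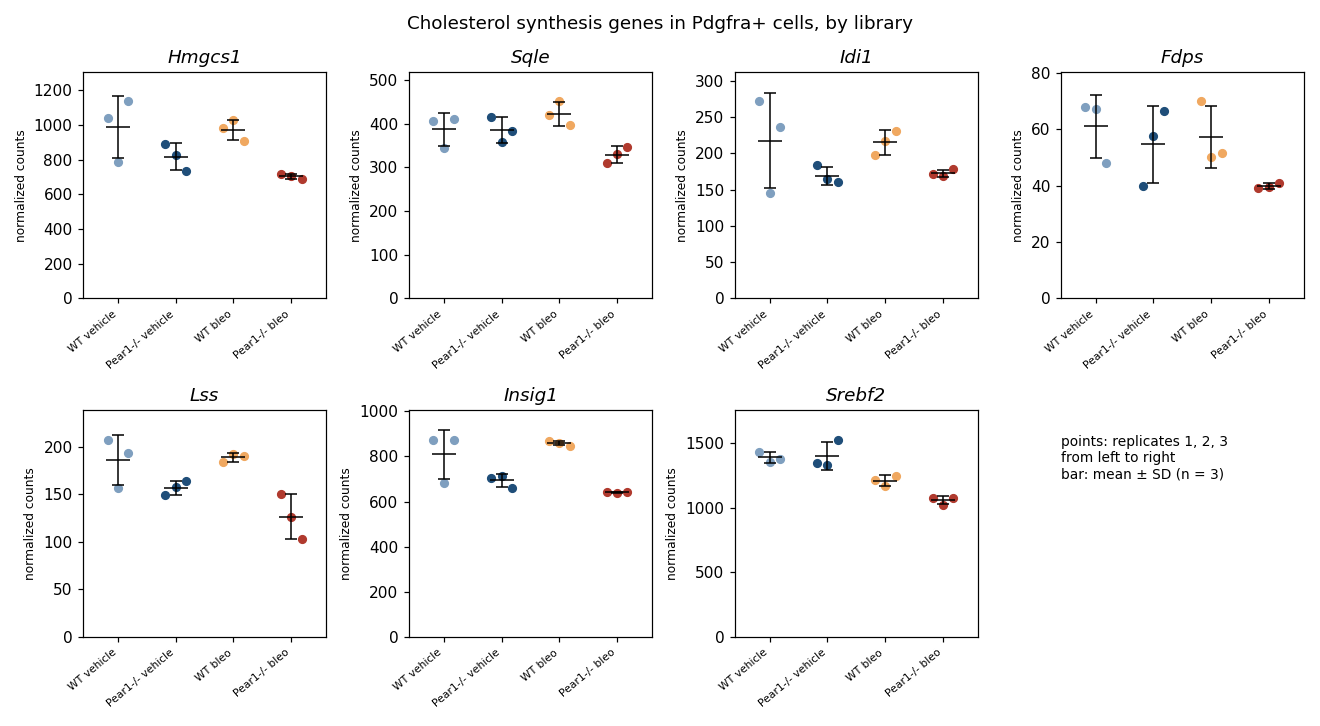
Normalized counts of the 7 members in each of the 12 libraries (points), with the group mean and SD (bars), 1 panel per gene and the 4 groups on the horizontal axis. In every panel the 3 Pear1-/- bleo points lie below the 3 WT bleo points, and WT vehicle replicate 2 lies lowest of its group for Hmgcs1, Sqle, Idi1, Lss, Insig1 and Srebf2.

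Hmgcs1 (chromosome 13, 119690379 to 119708260, plus strand) encodes the cytosolic HMG-CoA synthase, which joins acetyl-CoA to acetoacetyl-CoA. It had 1041, 788 and 1135 normalized counts in WT vehicle and 889, 825 and 737 in Pear1-/- vehicle. After bleo it had 979, 1025 and 907 in WT and 716, 707 and 687 in Pear1-/-. The vehicle groups overlapped through WT vehicle replicate 2, while the Pear1-/- bleo libraries were below all 9 others. Hmgcs1 fell in Pear1-/- bleo against WT bleo, with -0.48 (SE 0.11, adjusted p = 0.00127) and a 95% interval of -0.70 to -0.25. In WT, bleo against vehicle was -0.014 (SE 0.11, adjusted p = 0.917), and in Pear1-/- it was -0.21 (SE 0.11, adjusted p = 0.0923), neither of which passed.

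Idi1 (chromosome 13, 8885501 to 8892451, plus strand) encodes isopentenyl diphosphate isomerase, which interconverts the isoprene building blocks. WT vehicle held 272, 145 and 236 normalized counts, Pear1-/- vehicle held 184, 164 and 160.4, WT bleo held 197, 217 and 231 and Pear1-/- bleo held 171, 168 and 178. WT vehicle spread the widest, from its replicate 2, the lowest of all 12 libraries, to its replicate 1, the highest. The bleo groups did not overlap, but their difference of -0.33 (SE 0.16, adjusted p = 0.101), with a 95% interval of -0.67 to 0.0068, did not pass the test, and over the 15 alternatives computed its adjusted p ran from 0.00126 to 0.235.

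Fdps (chromosome 3, 89093588 to 89101959, minus strand) encodes farnesyl diphosphate synthase, the branch point between sterols and the other isoprenoids. It was the member with the fewest counts. WT vehicle held 67.9, 67.0 and 48.1 normalized counts, Pear1-/- vehicle held 39.8, 57.5 and 66.6, WT bleo held 69.8, 49.97 and 51.6 and Pear1-/- bleo held 39.1, 39.5 and 41.0. The Pear1-/- bleo libraries lay within 2 counts of each other and below all WT bleo libraries, but Pear1-/- vehicle replicate 1 lay among them. The difference between the bleo groups was -0.54 (SE 0.22, adjusted p = 0.0501), just outside the threshold, with a 95% interval of -0.99 to -0.082 and adjusted p from 0.00711 to 0.271 over 15 alternatives, 2 of which called it.

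Sqle (chromosome 15, 59315077 to 59331192, plus strand) encodes squalene epoxidase, the first oxygen-requiring and a flux-limiting step of the sterol branch. It had 405, 344 and 411 normalized counts in WT vehicle and 416, 358 and 382 in Pear1-/- vehicle. After bleo it had 421, 451 and 396 in WT and 309.9, 331 and 347 in Pear1-/-. The Pear1-/- bleo libraries were below every Pear1-/- vehicle and every WT bleo library and overlapped WT vehicle through its replicate 2. Sqle fell in Pear1-/- bleo against WT bleo at -0.37 (SE 0.091, adjusted p = 0.00232) and fell in Pear1-/- bleo against Pear1-/- vehicle, at -0.22 (SE 0.091, adjusted p = 0.0402). In WT, bleo against vehicle was 0.14 (SE 0.091, adjusted p = 0.178) and did not pass. The call within Pear1-/- was lost without Pear1-/- vehicle replicate 1, Pear1-/- bleo replicate 1 or Pear1-/- bleo replicate 2, and under DESeq2, limma, no filter on low counts, library totals and a replicate block (adjusted p = 0.0541 with the block).

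Lss (chromosome 10, 76531588 to 76557138, plus strand) encodes lanosterol synthase, which closes the sterol ring. Of Lss, WT vehicle held 207, 156 and 193 normalized counts, Pear1-/- vehicle held 149, 158 and 164, WT bleo held 184, 193 and 190.3 and Pear1-/- bleo held 150.1, 125 and 103. WT bleo was tight and lay within the range of WT vehicle, whereas Pear1-/- bleo ranged widely and reached into Pear1-/- vehicle with its replicate 1. Lss fell in Pear1-/- bleo against WT bleo, with -0.59 (SE 0.13, adjusted p = 0.00125) and a 95% interval of -0.87 to -0.31, the largest estimate among the 7 members. Bleo against vehicle was 0.041 (SE 0.13, adjusted p = 0.797) in WT and -0.30 (SE 0.14, adjusted p = 0.0594) in Pear1-/-.

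Insig1 (chromosome 5, 28071363 to 28078662, plus strand) is both a brake on SREBP2 processing and one of its targets. Its libraries held 872, 684 and 875 normalized counts in WT vehicle and 705, 714 and 661 in Pear1-/- vehicle. After bleo they held 869.8, 862 and 848 in WT and 642, 636 and 643 in Pear1-/-. Both bleo groups were tight, with Pear1-/- bleo below all 9 other libraries. Insig1 fell in Pear1-/- bleo against WT bleo, at -0.44 (SE 0.083, adjusted p = 0.000263) with a 95% interval of -0.61 to -0.26, and did not pass for bleo against vehicle in WT, at 0.099 (SE 0.083, adjusted p = 0.304), or in Pear1-/-, at -0.11 (SE 0.084, adjusted p = 0.257).

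Srebf2 (chromosome 15, 82147181 to 82205379, plus strand) encodes SREBP2 itself, and its intron carries the microRNA gene Mir33, for which at most 2 counts were given to any library. For Srebf2, WT vehicle held 1435, 1358 and 1378 normalized counts, Pear1-/- vehicle held 1348, 1328 and 1528, WT bleo held 1214, 1166 and 1248 and Pear1-/- bleo held 1079, 1020.3 and 1077. Srebf2 was the one member whose WT bleo libraries all lay below the WT vehicle libraries, and its Pear1-/- bleo libraries lay below all 9 others. It fell after bleo in WT, at -0.19 (SE 0.071, adjusted p = 0.0241), and in Pear1-/-, at -0.40 (SE 0.071, adjusted p = 7.97e-05), and fell in Pear1-/- bleo against WT bleo, at -0.20 (SE 0.071, adjusted p = 0.0237). The fall in Pear1-/- was called in 15 of 15 alternatives. The fall in WT was lost without WT vehicle replicate 1 or any 1 of the 3 WT bleo replicates, and with no filter on low counts, and that between the bleo groups was lost without WT bleo replicate 1 or 3 or any 1 of the 3 Pear1-/- bleo replicates, under limma and with no filter on low counts. Between the bleo groups its estimate ran from -0.24 to -0.19 over all 15 alternatives, 8 of which called it.

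Other annotated genes overlap 5 of the members. Of those in the count table, the highest count in any library was 8, for Gm22935 in Fdps, and 6 for the antisense gene 4930483K19Rik in Lss, and whether counting used the strand is not stated in the sources used here. Fdps itself had 39.1 or more normalized counts in every library.

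Set against all genes, the 5 members called lower in Pear1-/- bleo against WT bleo compare with 24% of all 17418 genes called lower, 22.1% called higher and 46.1% called in either direction, and the 7 of 7 that did not overlap compare with 31.6% of all genes that lay wholly lower. The median log2 fold change over the members was -0.44, against -0.013 over all genes and 0.021 over the 5507 genes averaging 5 or more in log2 CPM, of which 29.3% were called lower. None of the 7 passed the study's second criterion of a fold above 2, while 15% of all genes passed it together with an adjusted p under 0.05. Hmgcs1, Sqle, Lss and Insig1 were called in each of the 15 alternatives, and the direction was negative for all 7 members in each of them.

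**Figure D2:**
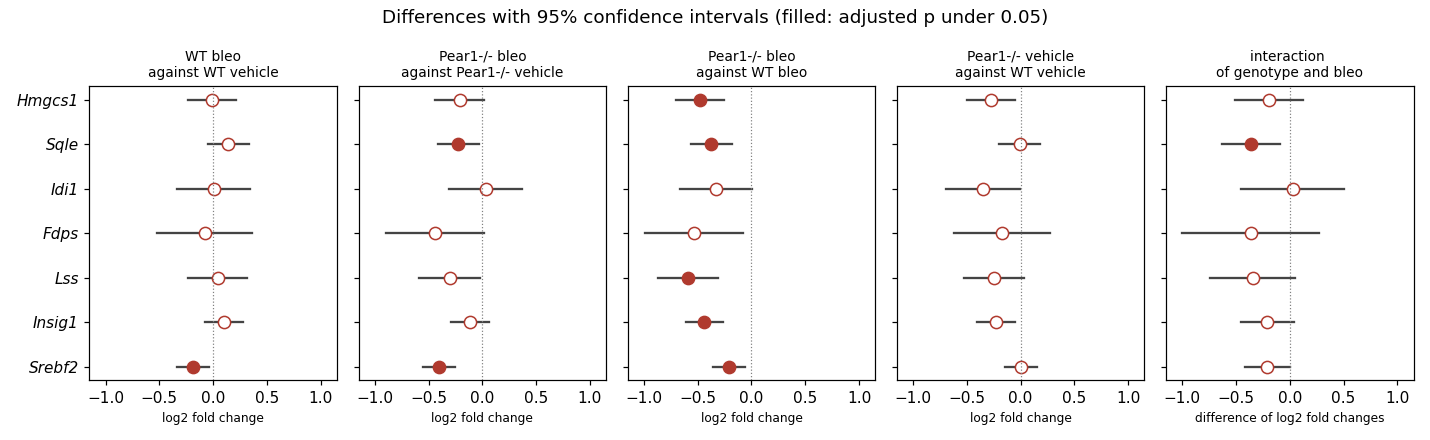
Log2 fold changes of the 7 members (horizontal axis, points with 95% intervals, filled where called) in the 5 comparisons, 1 panel each. Estimates in Pear1-/- bleo against WT bleo lie between -0.59 and -0.20 for all 7 genes, while those in WT bleo against WT vehicle lie between -0.19 and 0.14.

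In WT bleo against WT vehicle, 1 member was called, Srebf2, against 36.5% of all genes called lower, 31.4% called higher and 67.9% called in all, and 1 of 7 lay wholly lower against 36.7% of all genes. The median over the members was 0.0041 and that over all genes was -0.071, but over the 5507 genes averaging 5 or more in log2 CPM, which include Hmgcs1, Sqle, Insig1 and Srebf2, it was 0.19, with 48.7% called higher and 27.3% lower. Without WT vehicle replicate 2, again 1 member was called lower, while 76.4% of all genes were called in either direction. The estimates were then -0.089 for Hmgcs1, -0.16 for Idi1, 0.069 for Fdps, 0.13 for Sqle, -0.00896 for Lss, 0.054 for Insig1 and -0.14 for Srebf2, with a change of sign for Idi1, Fdps and Lss. Within Pear1-/-, for bleo against vehicle, 2 members were called lower and 0 higher, against 33.1% and 29.1% of all genes, 62.2% together. Hmgcs1, Sqle, Insig1 and Srebf2, 4 of 7, lay wholly lower, against 37.8% of all genes, and the median was -0.22 against -0.048 over all genes and 0.11 over those 5507.

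In Pear1-/- vehicle against WT vehicle, 0 of 7 members were called by edgeR's quasi-likelihood test, by limma or by DESeq2, beside 7.24% of all genes called, 5.29% lower and 1.95% higher. An unadjusted p under 0.05 in edgeR was reached by 3 members and by 31.4% of all genes. The 3 were Hmgcs1 at -0.28, Idi1 at -0.35 and Insig1 at -0.23, with adjusted p of 0.0914, 0.148 and 0.0821. This comparison depended on whether WT vehicle replicate 2 was kept, since without it WT vehicle is replicates 1 and 3 alone. Without that library, 4 members were called lower, Hmgcs1 at -0.34, Idi1 at -0.51, Lss at -0.29 and Insig1 at -0.26, and the median over the 7 was -0.26, while 55.3% of all genes were called and 29.7% were called lower.

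Whether bleo acted differently on a gene in the 2 genotypes was tested as the interaction, the log2 change after bleo in Pear1-/- minus that in WT. Sqle passed, at -0.36 (SE 0.13, adjusted p = 0.0327), and was the 1 member called, against 19.3% of all genes called lower and 37.1% in either direction. The interaction of the other 6 did not pass: Lss had -0.34 with a 95% interval of -0.74 to 0.052, and Idi1 0.025 with -0.46 to 0.51. Without WT vehicle replicate 2, Sqle and Srebf2 were called, against 46.4% of all genes, with Sqle at -0.37 and Srebf2 at -0.28 with an adjusted p of 0.0067, while Lss was at -0.31 and Idi1 at 0.17. The call of Sqle was lost without Pear1-/- vehicle replicate 1, with an adjusted p of 0.0509, and under DESeq2, limma and either of 2 other scalings. These comparisons share libraries, so they are given side by side and are not independent of each other.

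The remaining steps of the pathway were examined in 16 further genes, which with Hmgcs1, Idi1, Fdps, Sqle and Lss make 21 enzymes. Between the bleo groups, 11 of the 21 fell and 0 rose in Pear1-/-, where 24% and 22.1% of all genes did, 19 of 21 estimates were below 0, and the median was -0.33. Among the early steps, Pmvk, phosphomevalonate kinase, was at -0.29 and Mvd, mevalonate diphosphate decarboxylase, at -0.75, and both were called. Mvk, mevalonate kinase, was not, at -0.14 with an adjusted p of 0.333.

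After farnesyl diphosphate, Fdft1, squalene synthase, fell at -0.37 (SE 0.077, adjusted p = 0.000606). Of the enzymes that turn lanosterol into cholesterol, Cyp51, Msmo1 and Dhcr7 were among those that fell. Msmo1, the C4-methyl oxidase, had 1016, 901 and 911 normalized counts in WT bleo and 587, 581 and 559 in Pear1-/- bleo, and -0.72 (SE 0.075, adjusted p = 2.12e-07) on the log2 scale. Acat2 at 0.23 and Ebp at 0.17 were the 2 estimates above 0, and neither passed. The calls of Cyp51 and Pmvk were held in 6 and 10 of the 15 alternatives.

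**Figure D3:**
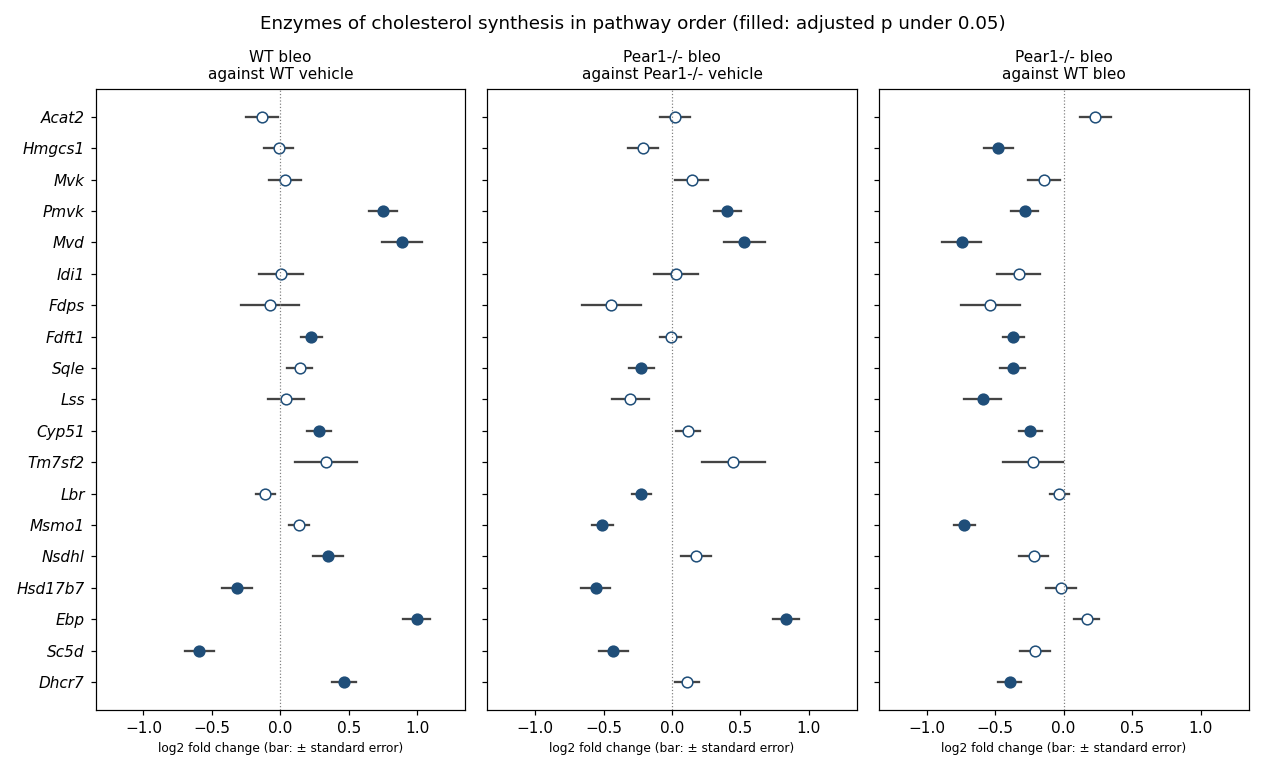
Log2 fold changes (horizontal axis, points with bars of 1 SE, filled where called) of 19 enzymes of cholesterol synthesis in pathway order from top to bottom, 1 panel for each of 3 comparisons. In Pear1-/- bleo against WT bleo 17 of the 19 lie below 0, with Mvd at -0.75 among the early steps and Msmo1 at -0.72 among the late ones.

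After bleo in WT, 8 of the 21 enzymes rose and 2 fell, where 31.4% and 36.5% of all genes did, with a median of 0.14. Ebp, the sterol isomerase, rose the most, at 0.996 (SE 0.098, adjusted p = 4.11e-08), followed by Mvd at 0.89 and Pmvk at 0.75, while Sc5d, the C5 desaturase, fell at -0.59 (SE 0.11, adjusted p = 8.67e-05). None of the 5 members among the enzymes was called in this comparison. The split depended on scaling: it was 4 higher and 4 lower, with a median of -0.05, with TMM factors from genes averaging 5 or more in log2 CPM, and 4 and 3 with library totals alone, and the first of these moved the median of all genes by -0.18. Without WT vehicle replicate 2 it was 9 and 1, where 76.4% of all genes were called.

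In Pear1-/- bleo against Pear1-/- vehicle, 3 enzymes rose, Pmvk at 0.40, Mvd at 0.53 and Ebp at 0.83. There 6 fell, among them Sqle, Lbr at -0.23, Msmo1 at -0.51, Hsd17b7 at -0.56 and Sc5d at -0.43, and the median was 0.02. Of all genes, 29.1% rose and 33.1% fell. With TMM factors from the same genes the split was 3 higher and 9 lower, with a median of -0.09 and a shift of -0.11 in the median of all genes. Of the 21, 4 had a called interaction, all below 0, a share close to the 19.3% of all genes called lower. Among them were Msmo1 at -0.64 (SE 0.11, adjusted p = 0.000104), Dhcr7 at -0.36 (SE 0.12, adjusted p = 0.0265) and Sqle. There were 8 without WT vehicle replicate 2, all below 0, where 46.4% of all genes were called and 26% were called lower. Between the vehicle groups, Ebp was higher at 0.33 and 2 enzymes were lower, among them Sc5d at -0.37, where 1.95% and 5.29% of all genes were. Ebp was called in 2 and Sc5d in 4 of the 15 alternatives, and without any 1 of the other 5 vehicle libraries 0 enzymes were called. Without WT vehicle replicate 2, 4 were higher, among them Ebp at 0.57, and 6 lower, where 55.3% of all genes were called.

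Of 8 genes that process SREBPs and sense sterols, 2 rose and 1 fell in Pear1-/- bleo against WT bleo, where 46.1% of all genes were called, with a median of 0.17. Mbtps1, the site-1 protease that makes the first cleavage of SREBPs, rose at 0.41 (SE 0.071, adjusted p = 9.95e-05). It had 788, 845 and 877 normalized counts in WT bleo and 1052, 1152 and 1157 in Pear1-/- bleo, which do not overlap. Insig2, the second INSIG, rose at 0.29 (SE 0.09, adjusted p = 0.014), and was called in 9 of 15 alternatives. Rnf139, a ubiquitin ligase of the endoplasmic reticulum, was at -0.28 (SE 0.12, adjusted p = 0.0499) and called in 3 of 15. Scap at 0.18 and Srebf1, the gene of SREBP1, at 0.24 did not pass, with adjusted p of 0.132 and 0.0922. After bleo in WT, 4 of the 8 fell and 0 rose, where 36.5% and 31.4% of all genes did, led by Mbtps1 at -0.59 and Srebf1 at -0.52, and in Pear1-/- 1 rose, the site-2 protease gene Mbtps2 at 0.63, and 2 fell, Rnf139 at -0.66 and Insig2 at -0.29, where 29.1% and 33.1% of all genes did.

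Of 10 genes of sterol uptake and intracellular transport, 7 fell and 1 rose in Pear1-/- bleo against WT bleo, where 24% and 22.1% of all genes did, with a median of -0.38. Osbp, an oxysterol-binding transfer protein, fell at -0.62 (SE 0.16, adjusted p = 0.00433), and Vldlr, the VLDL receptor, rose at 0.47 (SE 0.079, adjusted p = 7.04e-05). After bleo, 6 of the 10 rose and 2 fell in each genotype, while 67.9% of all genes in WT and 62.2% in Pear1-/- were called in either direction. Vldlr fell the most, at -2.09 in WT and -1.54 in Pear1-/-, and Scarb1, the HDL receptor, rose at 1.38 and 0.999.

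A list of 10 genes covered sterol efflux, LXR and its targets, oxysterol synthesis and cholesterol esterification. Of these, 8 rose and 1 fell after bleo in WT, where 31.4% and 36.5% of all genes did. The rises were led by Apoe, the apolipoprotein that macrophages secrete, at 2.21 (SE 0.09, adjusted p = 8.54e-13) and Abcg1, a sterol exporter, at 2.06 (SE 0.088, adjusted p = 1.9e-13). Nr1h3, the gene of LXR alpha itself, fell at -0.60. In Pear1-/-, 7 rose, led by Soat1, which esterifies cholesterol, at 0.92 and Apoe at 0.91, and 2 fell, Nr1h3 at -0.82 and Cyp27a1, the sterol 27-hydroxylase, at -0.81, where 29.1% and 33.1% of all genes did. In Pear1-/- bleo against WT bleo, 8 of 10 fell and 0 rose, where 24% and 22.1% of all genes did, with a median of -0.55. Cyp27a1 went from 1068 ± 47.8 to 415 ± 18.8 normalized counts (SD, n = 3), with -1.38 (SE 0.075, adjusted p = 2.78e-11), and Abcg1 had -1.07 (SE 0.083, adjusted p = 3.73e-09).

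Of 10 genes of fatty acid synthesis, which SREBP1 controls, 5 fell and 2 rose in Pear1-/- bleo against WT bleo, where 24% and 22.1% of all genes did, with a median of -0.22. Scd1, the stearoyl-CoA desaturase, fell from 1354 ± 39.4 to 627 ± 27.2 normalized counts (SD, n = 3), at -1.12 (SE 0.072, adjusted p = 2.69e-10), and Fasn, fatty acid synthase, fell at -0.52 (SE 0.14, adjusted p = 0.00595). Fads2, a fatty acid desaturase, rose at 0.39 (SE 0.095, adjusted p = 0.0023), and Scd2 at 0.25 (SE 0.087, adjusted p = 0.0232), a call held in 7 of 15 alternatives. After bleo, 7 of the 10 fell in WT and 1 rose, Acly, the ATP citrate lyase that supplies acetyl-CoA, at 0.42, and 6 fell and 0 rose in Pear1-/-. Of all genes, 36.5% fell and 31.4% rose in WT, and 33.1% and 29.1% in Pear1-/-. Fads2 fell the most in WT, at -1.23, and Scd1 the most in Pear1-/-, at -1.30. Without WT vehicle replicate 2, the genes that rose and fell after bleo in WT numbered 2 and 3 for SREBP processing and 6 and 3 for uptake. They numbered 9 and 1 for the list of efflux and LXR genes and 1 and 7 for fatty acid synthesis. In that fit 76.4% of all genes were called and 44.7% were called lower.

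Markers of the cell types that a lung sort can hold moved with the same comparisons. Fibroblast markers were high in every library, but markers of leukocytes and macrophages were high too, and no marker of the 8 lists was at 0 in any library. Summed over 8 leukocyte markers, WT vehicle held 15961 to 21999 normalized counts, Pear1-/- vehicle 21717 to 22905, WT bleo 63909 to 65813 and Pear1-/- bleo 32231 to 32519. All 8 rose after bleo in WT, where 31.4% of all genes were called higher. They also rose without WT vehicle replicate 2, where 76.4% of all genes were called in either direction. All 8 fell in Pear1-/- bleo against WT bleo, where 24% of all genes were called lower. The sum of 8 macrophage markers, which include Lyz2, C1qa and C1qb, was 15393 to 17849, 17414 to 18805, 137399 to 138063 and 54613 to 56552 in the same order, with 7 of 8 lower in Pear1-/- bleo than in WT bleo and Marco, at 0.55, not called.

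Summed over 8 fibroblast markers, WT vehicle held 120786 to 145892, Pear1-/- vehicle 145944 to 149322, WT bleo 109757 to 110797 and Pear1-/- bleo 288789 to 298369.6. In Pear1-/- bleo against WT bleo 7 of 8 rose, where 22.1% of all genes did. Their median was 0.95, against -0.013 over all genes. The sum is mostly collagens. After bleo in WT, 2 of the 8 rose and 6 fell, where 31.4% and 36.5% of all genes did, with a median of -0.88. Without WT vehicle replicate 2 the split was the same and the median -0.59, with 76.4% of all genes called. In Pear1-/-, 4 rose and 4 fell, where 29.1% and 33.1% of all genes did, with a median of -0.16. The summed level of 6 epithelial markers, mostly Scgb1a1 and Sftpc, was 37718 to 55440.3 in WT vehicle, 52163 to 61301 in Pear1-/- vehicle, 13962 to 14189.7 in WT bleo and 6023 to 6101 in Pear1-/- bleo. That of 6 B and plasma cell markers, mostly Jchain, was 83609 to 152505, 146356 to 176656, 15049 to 15653 and 75432 to 77958 in the same order, and it exceeded the fibroblast sum in some vehicle libraries. After bleo, 5 of 6 epithelial markers fell and 1 rose in WT, also without WT vehicle replicate 2, and 6 of 6 fell in Pear1-/-. Of the B and plasma cell markers 3 rose and 2 fell in WT (4 and 2 without WT vehicle replicate 2) and 4 fell in Pear1-/-. For all genes, 31.4% rose and 36.5% fell in WT, and 33.1% fell in Pear1-/-. Without WT vehicle replicate 2, 76.4% of all genes were called in WT in either direction. Between the bleo groups, Jchain and Mzb1, which mark plasma cells, were called higher and 2 were called lower, among them the B cell gene Cd79b. In this comparison 22.1% of all genes were called higher and 24% lower. Of the 6, 4 lay wholly lower, as did 31.6% of all genes, and the median was -0.33. Sums for T cells, endothelium and erythroid cells were at most 1423, 3613 and 319 in any library. The members' sum was 3872 to 3963 in WT bleo and 3028 to 3107 in Pear1-/- bleo, so leukocyte and macrophage markers and the members were lower, and fibroblast markers higher, in the same 3 libraries. The part of these cell types in the differences of the cholesterol genes was not tested.

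**Figure D4:**
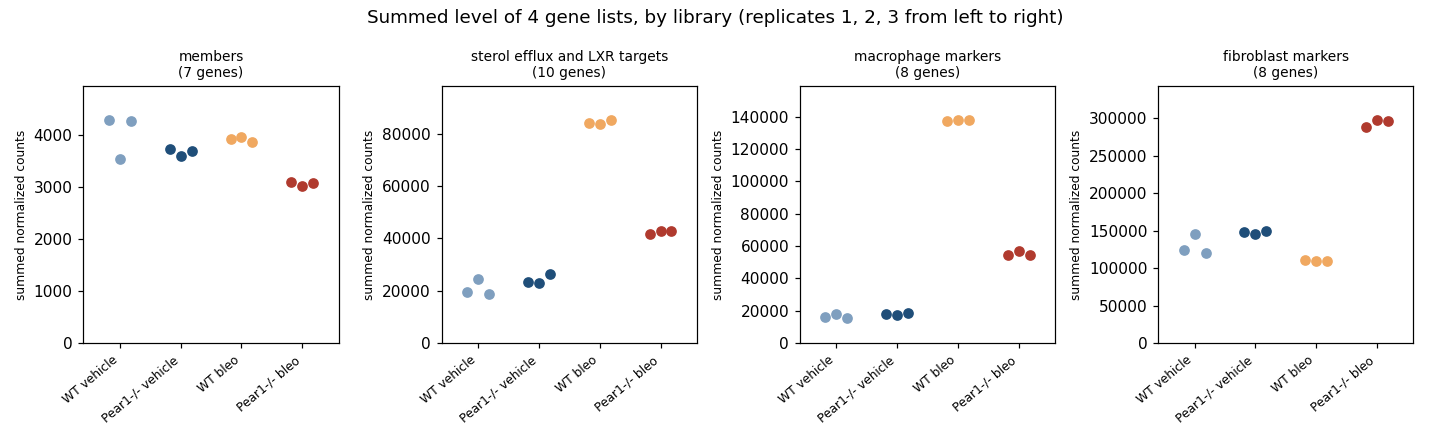
Summed normalized counts (vertical axis, from 0) of 4 gene lists in each of the 12 libraries (points, by group on the horizontal axis). The lists are the 7 members, 10 genes of sterol efflux, LXR and related sterol steps, 8 macrophage markers and 8 fibroblast markers. Macrophage sums of 54613 to 56552 in Pear1-/- bleo lie below those of 137399 to 138063 in WT bleo, as do the members' sums, while fibroblast sums lie above.

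To compare the members with each other, each gene's log2 CPM was centred on its mean over the 12 libraries and averaged over the 7 genes. The profile stood at 0.14 ± 0.18 (SD, n = 3) for WT vehicle, -0.032 ± 0.027 for Pear1-/- vehicle, 0.15 ± 0.021 for WT bleo and -0.26 ± 0.031 for Pear1-/- bleo. WT vehicle ranged from -0.058 in replicate 2 to 0.29. Insig1 followed the profile most closely, with a root mean square difference of 0.0723 over the 12 libraries, and Fdps least, with 0.236, where its counts were also the lowest of the 7. In 5308 other genes the log2 CPM before centring had a mean of 5 or more over the libraries. The 5507 genes above were picked by edgeR's own average log2 CPM, which is computed otherwise. Among the 5308, the closest to the profile were Slc23a2, a vitamin C transporter, at 0.0685, Atrn at 0.0775, Nup214, a nuclear pore protein, at 0.0800, Bsdc1 at 0.0844 and Usp48, a deubiquitinase, at 0.0871. With a minimum of 3, over 10448 genes, Atxn2 entered at 0.0762 in place of Usp48.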

How the data were processed

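CD140a+ lung cells were sequenced after SMART-Seq v4 amplification. The authors aligned reads to GRCm38 with HISAT2 2.1 and deposited raw counts per gene. The counting program and its strand setting are not given in the sources used here. They also deposited a normalized signal, which equalled the count over the DESeq2 size factor of its library and is called normalized count here.

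Groups came from the labels. The members and lists were chosen with earlier results of these data known. All 7 members, the other enzymes and, in each other list, the 2 largest rises and falls past the threshold could be named, and beyond this rule Scap, Srebf1 and Marco were named after their values were seen. Some genes counted in the lists are not reported here by name. In R 4.3.3, edgeR 4.0.16 (TMM, filterByExpr, robust glmQLFit, glmQLFTest, 12 libraries, 1 mean per group) was used with Benjamini-Hochberg adjustment. The robust estimate was adopted after results without it had been seen. Standard errors (SE) are the log2 fold change over the root of F. DESeq2 1.42.0, limma 3.58.1 on log2(normalized count + 1), other scalings, no filter, a replicate block and leaving out each library were alternatives. Tested on simulated data for WT bleo against WT vehicle, with 17418 genes, 76% of 100 genes changed by a fold of 2 and 43% of 100 changed by 1.5 were recovered, and 2 unchanged genes were called. The simulation gave all genes the same spread, changed few genes and held no library that stood apart. These shares therefore check the code and do not carry over to the real comparison. Centred log2 CPM used a prior count of 2. Gene coordinates came from GENCODE M21 on GRCm38.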

Additional observations from a re-analysis of the deposited data

Results flagged for a closer look

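Sqle met 1 criterion for a closer look: its change after bleo differed between the genotypes by a test of the difference itself. Sqle went from 387 ± 37.1 to 422 ± 27.5 normalized counts (SD, n = 3) in WT and from 385 ± 28.9 to 329 ± 18.6 in Pear1-/-, and the interaction was -0.36 (SE 0.13, adjusted p = 0.0327), with a 95% interval of -0.63 to -0.094. It was below 0 in each of the 20 alternatives and called in 15 of them, with the other 5 named in the text above.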

How the results depend on the processing

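Of the members' values under an alternative, 463 kept their direction and side of the threshold, 23 became called, 25 lost their call and 49 changed sign, the last all in values not called to begin with. For 97 named results on other genes, 1545 values under an alternative held 0 changes of sign, and 71 results were called throughout. The alternatives without the robust estimate, with library totals alone and with TMM on genes averaging 5 or more in log2 CPM (the higher genes) were chosen after seeing the data. Members called in WT bleo against WT vehicle (1) numbered 2, both higher, with no filter, and 0 to 1 without 1 library. Of all genes, 19714 of 40760 were called with no filter, and 11247 to 15597 without 1 library. In Pear1-/- bleo against Pear1-/- vehicle (2) members called numbered 1 with DESeq2, limma, no filter, a replicate block or library totals. They numbered 5 with only the compared groups or TMM on the higher genes, and 1 to 3 without 1 library. Over all genes, DESeq2 called 11802 of 27277 there, limma 10483 of 17418 and the fit with no filter 13684 of 40760. Of 17418, the replicate block called 10708, library totals 10816 and TMM on the higher genes 10892. Only the compared groups gave 11001 of 15764, and 10319 to 10905 were called without 1 library. Between the vehicle groups (0) members called numbered 1 with TMM on the higher genes or library totals, where 1776 and 2188 of 17418 genes were called. Without 1 library they numbered 0 to 4, where 0 to 11281 genes were called. For the interaction (1) members called numbered 0 with DESeq2, limma, TMM on the higher genes or library totals and 0 to 2 without 1 library. All genes called were 5660 of 23326 with DESeq2, and 5902, 6485 and 6578 of 17418 with the others in that order. Leaving out 1 library gave 5430 to 9463 genes called. Between the bleo groups (5) members called numbered 4 to 5 without 1 library, where 6530 to 6621 genes were called. Of the 21 enzymes, the interaction (4) gave 2 with DESeq2, TMM on the higher genes or library totals and 4 to 8 without 1 library. Between the bleo groups (11) there were 17 with only the compared groups, where 9848 of 14922 genes were called. Between the vehicle groups (3) there were 0 with DESeq2, limma or only the compared groups, and 1 with a replicate block or without the robust estimate. DESeq2 called 823 of 21745 genes there, and of 17418 the block called 1256 and the fit without the robust estimate 784. Leaving out 1 library gave 0 to 10 enzymes, where 0 to 11281 genes were called. The fit to only the vehicle groups called 0 of 16422 genes, and limma 33. Causes were not tested.

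Changes of sign were as follows. With no filter, WT bleo against WT vehicle became 0.052 for Fdps and 0.13 for Hmgcs1, and Sqle became 0.091 between the vehicle groups. With TMM on the higher genes, WT bleo against WT vehicle became -0.19 for Idi1, -0.093 for Insig1, -0.15 for Lss and -0.047 for Sqle, Idi1 became -0.083 in Pear1-/- and Srebf2 -0.092 between the vehicle groups. With library totals, Idi1 became -0.11, Insig1 -0.0091 and Lss -0.062 in WT, and Srebf2 -0.15 between the vehicle groups. With DESeq2 size factors Idi1 became -0.026 in WT and Srebf2 -0.0011 between the vehicle groups, with the DESeq2 test Idi1 became -0.012, and with only the compared groups Idi1 became -0.032 and Srebf2 -0.0079. The interaction of Idi1 became -0.00048 with limma and -0.067 with no filter. Without 1 library, the values in WT ran from -0.22 to 0.069 for Fdps, -0.089 to 0.10 for Hmgcs1, -0.16 to 0.20 for Idi1 and -0.00896 to 0.13 for Lss. Those between the vehicle groups ran from -0.31 to 0.064 for Fdps, -0.016 to 0.095 for Sqle and -0.017 to 0.096 for Srebf2, and for Idi1 the change in Pear1-/- from -0.019 to 0.071 and the interaction from -0.17 to 0.17.

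Same-numbered libraries did not deviate together, with correlations of -0.16 to 0.0997 over 18 pairs, 0 above 0.1, and 4 pairs best with their own number, so the numbers are not taken as a pairing. The replicate block left 5 members called between the bleo groups and 1 in WT bleo against WT vehicle, and lost the call of Sqle in Pear1-/- bleo against Pear1-/- vehicle, where 1 of 2 remained. Scaling moved the median of all genes by more than 0.1 in 4 cases, 2 of them given above, and by -0.15 between the vehicle groups and 0.15 for the interaction with library totals. Depth limits Fdps most, and with 3 libraries a group an exact permutation test allows no p below 0.1.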

Other observations

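Of 10 genes of the branch that turns farnesyl and geranylgeranyl diphosphate into prenyl groups, dolichol and ubiquinone, 3 rose and 2 fell in Pear1-/- bleo against WT bleo, where 22.1% and 24% of all genes did, with a median of 0.02. The subunits of farnesyltransferase rose, Fntb from 115, 106 and 125 to 239, 242 and 197 normalized counts, at 0.96 (SE 0.12, adjusted p = 2.98e-06), and Fnta from 302, 307 and 313 to 443, 473 and 465, at 0.57 (SE 0.091, adjusted p = 4.31e-05). Their bleo groups did not overlap. Both had fallen after bleo in WT, Fntb at -0.67 and Fnta at -0.32, and their interactions passed, at 0.89 (SE 0.17, adjusted p = 0.000488) for Fntb and 0.86 (SE 0.13, adjusted p = 4.48e-05) for Fnta. The falls in WT without WT vehicle replicate 2 were at -0.59 and -0.36 and the interactions at 0.80 and 0.88, all of them called. Pggt1b, which pairs with Fnta in a second prenyltransferase, fell between the bleo groups at -0.41 (SE 0.098, adjusted p = 0.00201), and Rabggta, which prenylates RAB proteins, was at -0.28 and called in 9 of 15 alternatives.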
